A study of Mus musculus with 4 samples.

Results

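The 10 genes described here make, break down or regulate the polyamines putrescine, spermidine and spermine. They were chosen by name (*Odc1*, *Amd1*, *Srm*, *Sms*, *Oaz1*, *Oaz2*, *Azin1*, *Sat1*, *Smox* and *Paox*) and are 10 of the 46095 mouse gene symbols counted by RNA sequencing of the stomach. The study asked what overexpression of *c-Myc* in the gastric parietal cell lineage does to the stomach, and compared 2 WT samples with 2 *Atp4b-cre;MycOE* samples (named MYC-KI in the sample titles). All mice were 12-week old C57BL/6 mice. The WT mice were *Myc* fl/fl littermates, which carry the silent *c-Myc* cassette and no Cre. The *c-Myc* transgenic mice were *Atp4b-cre; Myc* fl/+ animals, in which Cre recombinase made from the promoter of *Atp4b*, a subunit gene of the proton pump of parietal cells, switches the cassette on. RNA of stomach tissue was measured, so the cells that carry the transgene were not separated from the rest. The series text speaks of samples in triplicate, and the 2 labelled samples of each genotype were analysed here. The labels do not say that each sample is 1 animal, and p-values measure the spread between these 4 samples.

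Polyamines are small positively charged molecules that bind nucleic acids, and dividing cells need them for translation and growth. Ornithine decarboxylase, encoded by *Odc1*, makes putrescine from ornithine. Decarboxylated S-adenosylmethionine, made by the enzyme of *Amd1*, gives the aminopropyl groups with which spermidine synthase (*Srm*) and spermine synthase (*Sms*) extend the chain. Antizymes (*Oaz1*, *Oaz2*) bind ornithine decarboxylase and send it to the proteasome, antizyme inhibitor (*Azin1*) keeps antizyme away from it, and *Sat1*, *Smox* and *Paox* encode the enzymes that acetylate and oxidize spermine and spermidine back down the chain. *Odc1* is a textbook target gene of MYC, whose binding site, the E-box, has the core letters CACGTG, with CACGCG as a known variant.

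The promoter windows of the 10 genes were searched for both E-box cores, on both strands, because the overexpressed protein binds them. A window ran from 250 bases before to 50 bases after a transcription start in the RefSeq annotation of GRCm38.p6, and 10 windows of 8 of the genes were in the table used (none for *Srm* or *Azin1*). CACGTG, which reads the same on both strands, stood in 1 of the 10 windows, and it is found in 2349 (7.15%) of the 32851 windows of all genes. CACGCG, searched also as its reverse complement, stood in 3 of the 10 windows, those of *Odc1* and *Oaz1* and 1 of *Sms*, and in 3045 (9.27%) of all windows. The cores share their first 4 letters, and no match of one lay on a match of the other in these windows. The *Odc1* window (chr12:17544623-17544922, plus strand) held CACGCG or its reverse complement at positions 71 and 150, counted from 1 at the first base of the window. One of the *Sms* windows (chrX:157492238-157492537, minus strand) held CACGTG at position 55. Both are printed, with the cores in capitals, because *Odc1* is the first enzyme of the pathway and *Sms* the 1 gene with the CACGTG core in the windows searched. Sequence outside these windows was not searched. A match of letters is a description and not a measured binding site.
*Odc1* promoter: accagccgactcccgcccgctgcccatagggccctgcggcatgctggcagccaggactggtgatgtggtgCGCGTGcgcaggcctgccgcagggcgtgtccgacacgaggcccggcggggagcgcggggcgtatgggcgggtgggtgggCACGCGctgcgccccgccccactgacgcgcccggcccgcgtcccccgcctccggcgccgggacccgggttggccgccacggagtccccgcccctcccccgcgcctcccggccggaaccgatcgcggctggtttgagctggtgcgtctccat
*Sms* promoter: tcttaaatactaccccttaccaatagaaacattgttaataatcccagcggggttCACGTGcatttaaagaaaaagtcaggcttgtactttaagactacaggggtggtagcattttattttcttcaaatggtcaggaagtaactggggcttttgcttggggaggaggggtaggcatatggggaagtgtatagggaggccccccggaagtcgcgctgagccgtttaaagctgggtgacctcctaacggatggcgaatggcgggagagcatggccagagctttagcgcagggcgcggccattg

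The pairing of names and counts decided every value that follows. In the table as deposited, names were listed without regard to case, and for most rows the counts of both *c-Myc* transgenic columns did not belong to the names beside them. The counts of these columns were therefore moved, in row order, to the names put in character code order (capitals before lower case), and the WT columns were left in place. Sorting left 3109 names (6.74%) where they were, none of them a polyamine gene described here. Around each gene, Pearson's r between the genotypes' mean log2(count + 1) over the 61 surrounding rows, which share libraries and are not replicates, lay between 0.963 (*Amd1*) and 0.995 (*Sat1*) after re-sorting. Before it, r lay between -0.322 and 0.267 for 7 of the genes, and around *Odc1*, *Oaz1* and *Oaz2* the *c-Myc* transgenic columns had no reads at all. In the deposited order the *Odc1* row of these columns holds the 0 and 0 counts that re-sorting gives to the olfactory receptor gene *Olfr1336*. The *Srm* row holds 531 and 866 counts that re-sorting gives to *Syt11*, and the *Azin1* row holds 67 and 38 counts of its relative *Azin2*.

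**Figure D1:**
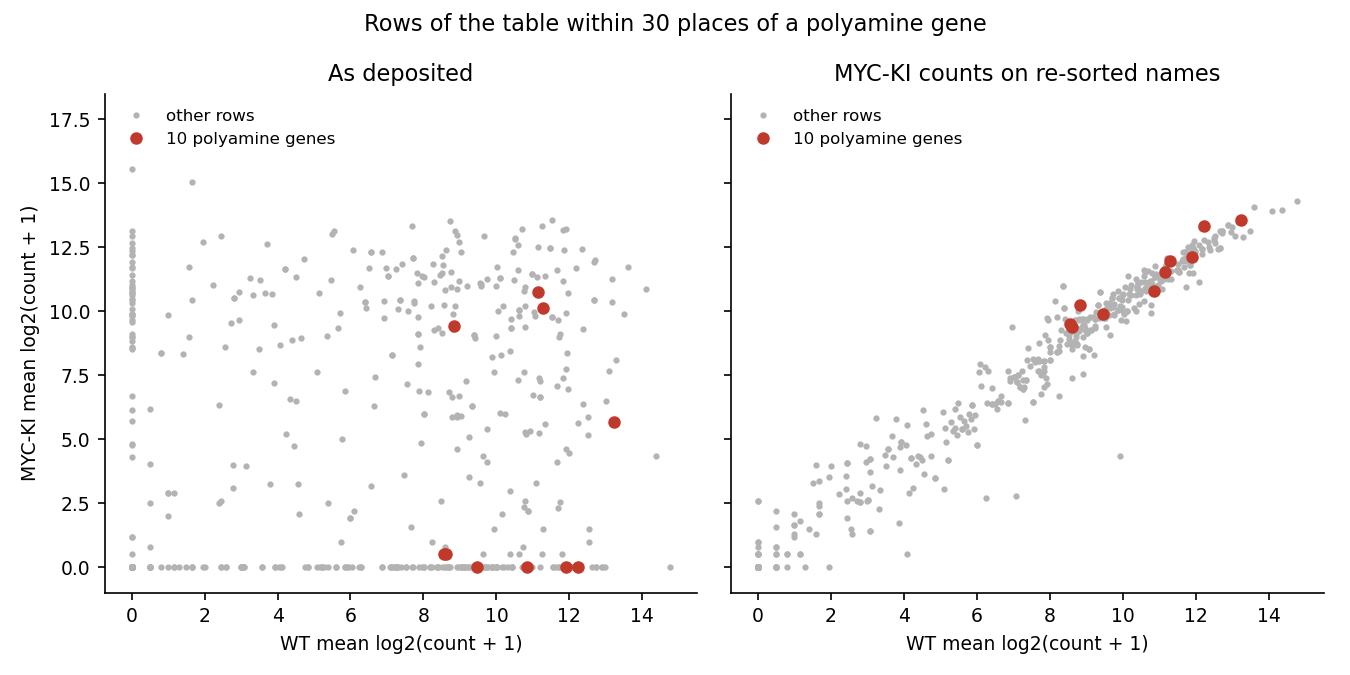
Mean log2(count + 1) of the WT samples (horizontal axis) against that of the *c-Myc* transgenic samples (vertical axis), for the rows within 30 places of each of the 10 polyamine genes (red) in the deposited order (left) and after re-sorting the *c-Myc* transgenic counts (right). The points fill the left panel with no relation, 6 of the red points lie at or near 0 on its vertical axis, and in the right panel they form a band along the diagonal.

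The 4 samples held 30260305 to 41463647 counts. The mouse *Myc* row had 1062 and 759 counts in the WT samples and 735 and 1091 in the *c-Myc* transgenic samples (log2 fold change -0.35, adjusted p = 0.163 in edgeR's quasi-likelihood test), and the table has no row for a human transgene, so this row does not check the labels. Parietal cell genes were lower in the *c-Myc* transgenic samples, with 5 of 5 called. *Atp4b* itself fell from 87583 and 69469 counts to 1301 and 2310 (log2 fold change -5.82, adjusted p = 0.00635, edgeR), so the gene whose promoter drives Cre was itself among those that fell. Of 5 chief cell genes 4 fell and of 4 surface mucous cell genes 4 fell, while of 5 mast cell genes 3 rose. Of 8 pancreatic acinar genes 2 had enough reads to be tested. *Clps* was called lower (4869 and 3323 against 39 and 34 counts, log2 fold change -7.13, adjusted p = 0.00635, edgeR), *Cel* was not called (log2 fold change -1.11, adjusted p = 0.103, edgeR), and *Prss2*, *Cpa1* and *Amy2a5* had 0 counts in all samples. In tissue that was not separated into cells, fewer cells of a type and less RNA per cell cannot be told apart. *Pgc*, a chief cell gene, took 7.52% and 7.07% of all counts in the WT samples against 0.113% and 0.154% in the *c-Myc* transgenic samples, and scaling factors (TMM) of 0.929 and 0.923 against 1.08 and 1.08 offset such shifts. *Xist*, which marks the inactive X chromosome, was high in WT replicate 2 (17846 counts) and low in WT replicate 1 (85) and in both *c-Myc* transgenic samples, so WT replicate 2 stands apart in sex. *Sat1* and *Sms* lie on the X chromosome, and their values without WT replicate 2 are given with them.

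RNA of ornithine decarboxylase and of spermidine synthase was higher in the *c-Myc* transgenic stomach, and the enzymes of breakdown and the regulators of ornithine decarboxylase were not called. Calls needed a Benjamini-Hochberg adjusted p under 0.05 over 17643 tested genes and a change of more than 1.5-fold in either direction. *Odc1* and *Srm* were called higher, none of the 10 genes was called lower, and 8 were not called. All 10 were tested, and over all tested genes 10.7% were called, 5.65% higher and 5.08% lower. The median log2 fold change of the 10 genes was 0.21, beside 0.012 over all tested genes. Without a scaling factor (library size alone) the median of all tested genes moved to 0.23, that of the 10 genes to 0.43, and calls to 2272 higher and 739 lower, against 996 and 896 with TMM, and the same number of polyamine genes, 2, was called higher. No gene was called anywhere in the table when either WT sample was left out (3554 genes without WT replicate 1 and 3410 without WT replicate 2 had an unadjusted p under 0.05), and 1 of the polyamine genes, *Odc1*, was called without *c-Myc* transgenic replicate 1.

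**Figure D2:**
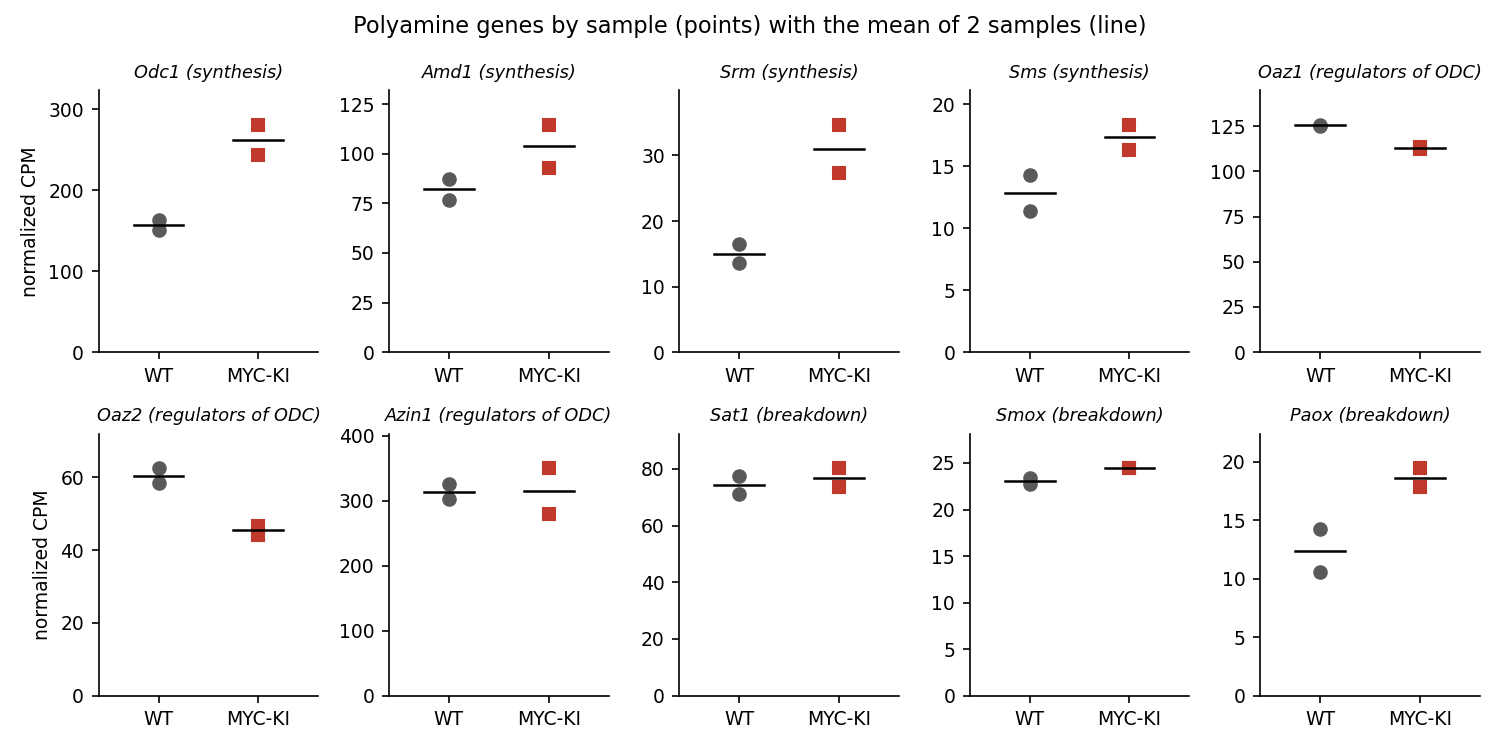
Normalized CPM (vertical axes starting at 0) of the 10 polyamine genes in the 2 WT samples (grey circles) and the 2 *c-Myc* transgenic samples (red squares), with the mean of each genotype as a line. *Odc1* and *Srm* have the largest ratios between the genotypes, from means of 157 to 262 CPM and of 15.0 to 31.1 CPM, and *Sat1* and *Azin1* overlap.

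*Odc1* (GRCm38 chr12:17544794-17551505, plus strand), the first and rate-limiting step, had 5082 and 4557 counts in the WT samples and 9536 and 10863 in the *c-Myc* transgenic samples. After normalization for library size and composition (CPM) these were 151 and 163 CPM against 281 and 243 CPM, so both *c-Myc* transgenic samples lay above both WT samples. The mean rose from 157 ± 8.42 to 262 ± 26.8 CPM (SD, n = 2 in each genotype), 1.67-fold, with a log2 fold change of 0.74 (SE 0.11, 95% interval 0.44 to 1.03, adjusted p = 0.0316 in edgeR's quasi-likelihood test). With the replicate number as a block the log2 fold change was 0.73 (adjusted p = 0.0768, edgeR), and the call was lost. Leaving out 1 sample moved the log2 fold change between 0.63 and 0.84. The adjusted p in edgeR was 0.217 without WT replicate 1 and 0.238 without WT replicate 2, where the call was lost, and 0.0416 and 0.0216 without either *c-Myc* transgenic sample. Over all alternatives on the re-sorted counts the adjusted p of *Odc1* ran from 1.15e-05 (DESeq2) to 0.238 (edgeR).

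*Srm* (chr4:148591503-148594993, plus strand), spermidine synthase, had the largest log2 fold change of the 10. It had 454 and 460 counts in the WT samples and 1177 and 1224 in the *c-Myc* transgenic samples, or 13.5 and 16.5 CPM against 34.7 and 27.4 CPM. The genotypes did not overlap, and the mean rose 2.07-fold from 15.0 ± 2.09 to 31.1 ± 5.16 CPM (SD, n = 2 in each). The log2 fold change was 1.05 (SE 0.19, 95% interval 0.54 to 1.55, adjusted p = 0.0400, edgeR). With the replicate number as a block it was 1.05 (adjusted p = 0.0916, edgeR), and the call was lost. Leave-one-out values ran from 0.87 to 1.21, and the adjusted p in edgeR was 0.232 without WT replicate 1, 0.238 without WT replicate 2 and 0.0647 without *c-Myc* transgenic replicate 1, where the call was lost, and 0.0290 without *c-Myc* transgenic replicate 2. Over all alternatives on the re-sorted counts it ran from 0.000156 (DESeq2) to 0.238 (edgeR).

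The other two enzymes of synthesis had values on the same side but did not pass the test. *Sms* (chrX:157443855-157492287, minus strand), spermine synthase, had 14.3 and 11.4 CPM in the WT samples and 18.4 and 16.3 CPM in the *c-Myc* transgenic samples. Its samples did not overlap between genotypes, and the log2 fold change was 0.43 (SE 0.18, 95% interval -0.055 to 0.92, adjusted p = 0.181, edgeR). *Amd1* (chr10:40287458-40302186, minus strand), the S-adenosylmethionine decarboxylase gene, had 76.6 and 87.5 CPM against 115 and 93.0 CPM. Again the samples did not overlap, with *c-Myc* transgenic replicate 2 close above WT replicate 2, and the log2 fold change was 0.34 (SE 0.14, 95% interval -0.039 to 0.72, adjusted p = 0.177, edgeR). The intervals of both genes reach past the 1.5-fold threshold, so a rise of that size lies within the error of 2 samples per genotype. Under library size alone the log2 fold change was 0.65 for *Sms* (adjusted p = 0.0706, edgeR) and 0.56 for *Amd1* (adjusted p = 0.0562, edgeR). That of *Sms* was 0.61 without WT replicate 1 and 0.27 without WT replicate 2, and that of *Amd1* was 0.18 without *c-Myc* transgenic replicate 1 and 0.48 without *c-Myc* transgenic replicate 2.

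None of the 3 regulators of ornithine decarboxylase was called. *Oaz2* (chr9:65668001-65690300, plus strand), an antizyme, came closest, with 62.5 and 58.3 CPM in the WT samples and 46.7 and 44.1 CPM in the *c-Myc* transgenic samples. Both *c-Myc* transgenic samples were the lower ones, and the log2 fold change was -0.41 (SE 0.086, 95% interval -0.64 to -0.18, adjusted p = 0.0519, edgeR). Over the alternatives on the re-sorted counts its adjusted p ran from 0.0123 (DESeq2) to 0.258, and its log2 fold change stayed under the fold threshold in size in all of them, with -0.19 (adjusted p = 0.189, edgeR) under library size alone. *Oaz1* (chr10:80826656-80829290, plus strand), the more abundant antizyme, had 126 and 125 CPM against 112 and 113 CPM, a log2 fold change of -0.15 (SE 0.073, 95% interval -0.35 to 0.042, adjusted p = 0.223, edgeR) that turned to 0.069 when library size alone was used. *Azin1* (chr15:38487427-38519266, minus strand), the antizyme inhibitor, had 303 and 325 CPM against 350.2 and 279 CPM. The *c-Myc* transgenic samples lay on both sides of the WT samples, and the log2 fold change of 0.0018 (SE 0.14, 95% interval -0.37 to 0.38, adjusted p = 0.993, edgeR) changed sign with the scaling used.

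The 3 genes of breakdown were not called either. *Paox* (chr7:140115799-140137224, plus strand), the peroxisomal oxidase of acetylated polyamines, had 14.2 and 10.6 CPM in the WT samples and 17.8 and 19.5 CPM in the *c-Myc* transgenic samples, from 477, 295, 605 and 869 counts. The genotypes did not overlap, with means of 12.4 ± 2.57 and 18.6 ± 1.14 CPM (SD, n = 2 in each). The log2 fold change was 0.59 (SE 0.20, 95% interval 0.058 to 1.12) with an unadjusted p of 0.0364 and an adjusted p of 0.120 in edgeR's quasi-likelihood test. The log2 fold change was 0.82 without WT replicate 1 and 0.39 without WT replicate 2, and *Paox* was called in neither fit. *Smox* (chr2:131491496-131525922, plus strand), spermine oxidase, had 23.4 and 22.8 CPM against 24.4 and 24.4 CPM, a log2 fold change of 0.082 (SE 0.11, 95% interval -0.21 to 0.37, adjusted p = 0.641, edgeR). *Sat1* (chrX:155213132-155216449, minus strand), the acetyltransferase that starts the breakdown, had 77.5 and 71.2 CPM against 80.3 and 73.6 CPM. Its samples overlapped, and the log2 fold change was 0.050 (SE 0.092, 95% interval -0.20 to 0.30, adjusted p = 0.744, edgeR), or -0.013 without WT replicate 2. The intervals of *Smox* and *Sat1* stop below the 1.5-fold threshold, while that of *Paox* does not. Under library size alone the log2 fold changes were 0.81 for *Paox*, 0.30 for *Smox* and 0.27 for *Sat1*, and none of the 3 was called.

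**Figure D3:**
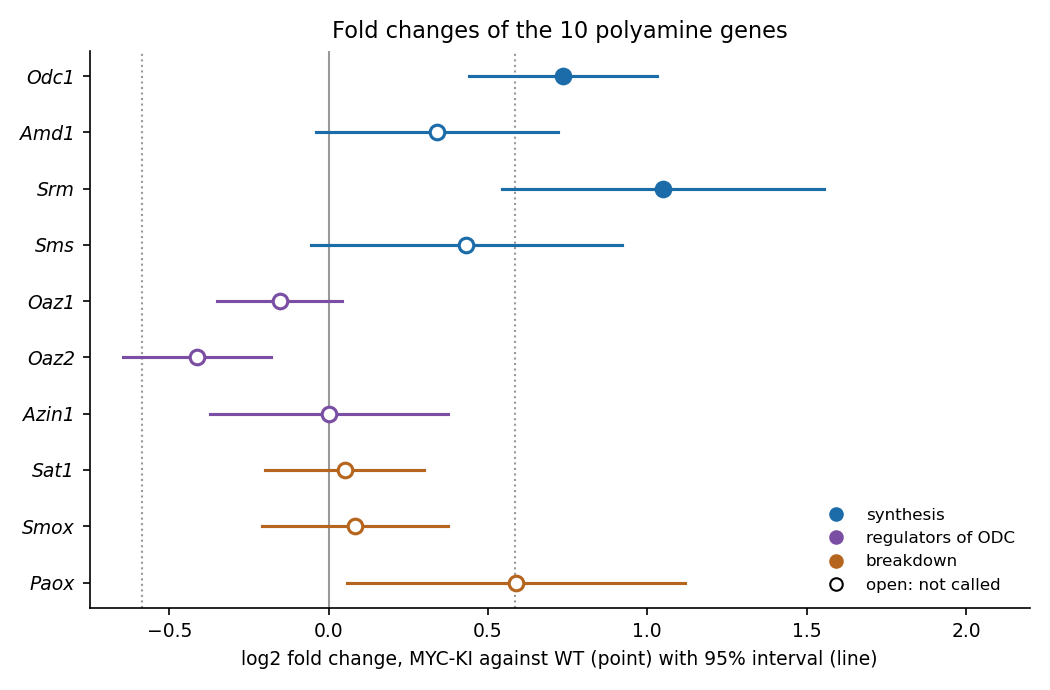
Log2 fold change of the *c-Myc* transgenic against the WT samples (points) with its 95% interval (lines) for the 10 polyamine genes, coloured by role, with filled points for called genes and dotted lines at the 1.5-fold threshold on either side of 0. The filled points are *Odc1* at 0.74 and *Srm* at 1.05, the genes of breakdown and the regulators are open, and *Oaz2* is the gene whose interval lies below 0.

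The samples of the 2 genotypes did not overlap for 8 of the 10 genes, 6 higher and 2 lower in the *c-Myc* transgenic samples, beside 64.9% of all tested genes. With 2 samples in each genotype such a separation is common in this table, and the share of the polyamine genes is read against it. *Sat1* and *Azin1* overlapped.

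Ratios between genes of 1 sample do not depend on the scaling factor. They are ratios of RNA counts, and the genes in them other than *Odc1* and *Srm* were not called. *Odc1* counts over the summed counts of its antizymes *Oaz1* and *Oaz2* were 0.804 and 0.891 in the WT samples and 1.77 and 1.54 in the *c-Myc* transgenic samples, 1.95 times higher in the mean. *Odc1* over *Azin1* was 0.499 and 0.502 against 0.803 and 0.872. *Srm* over *Sms*, the enzymes that make spermidine and spermine, was 0.944 and 1.45 against 1.89 and 1.68. The summed counts of the 4 enzymes of synthesis over those of the 3 enzymes of breakdown were 2.22 and 2.67 against 3.66 and 3.23. In each of these ratios both *c-Myc* transgenic samples lay above both WT samples. The smallest two-sided p that an exact permutation test of 2 against 2 samples can give is 0.333, so these ratios are given without a test.

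Per kilobase of merged exon, a rough scale for levels of different genes, *Azin1* (50.2 CPM per kb), *Oaz1* (49.0) and *Odc1* (46.2) had the highest mean levels in the WT samples. *Sat1* (26.8 CPM per kb), *Amd1* (23.2) and *Oaz2* (20.2) came next, followed by *Srm* (9.39), *Smox* (5.93), *Paox* (2.53) and *Sms* (2.14). Of the neighbours in this order, the WT samples of *Azin1* and *Oaz1* and those of *Paox* and *Sms* overlapped. In the *c-Myc* transgenic samples *Odc1* had the highest level, with a mean of 77.0 CPM per kb, above *Azin1* (50.3) and *Oaz1* (44.1). *Srm* rose from 9.39 to 19.4 CPM per kb, above *Oaz2*, which had 15.2. These levels rest on merged exon lengths of the GENCODE M21 annotation of GRCm38, which need not be the annotation the counts were made with. Merged exons can also be longer than a transcript. They hold 3405 bases for *Odc1*, which has an annotated transcript of 2208 bases. The order of the genes could differ with other lengths.

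Several of the genes share sequence with near copies, between which reads may be split. Of all 50-base words in the transcripts of *Amd1*, 78.1% occur in another gene, and the shares are 28.5% for *Paox*, 24.3% for *Odc1*, 21.0% for *Oaz1*, 17.5% for *Sms* and under 8% for the rest, with 0 for *Smox*. The copy with the largest log2 fold change was *Gm7993*, a processed pseudogene of *Odc1* (GRCm38 chr5:95974240-95975623, plus strand). It had 36 and 47 counts in the WT samples and 1099 and 1223 in the *c-Myc* transgenic samples, or 1.07 and 1.68 CPM against 32.4 and 27.4 CPM. Its log2 fold change was 4.44 (SE 0.29, adjusted p = 0.0140, edgeR), and its counts per *Odc1* count were 0.00708 and 0.0103 in the WT samples against 0.115 and 0.113 in the *c-Myc* transgenic samples. Both *c-Myc* transgenic samples had a higher share than both WT samples, and this ratio does not depend on the scaling factor. Its 8 nearest rows in the sorted order had at most 2 counts in any sample, and over the 60 rows around it r between the genotypes was 0.963. The pseudogene aligns to the coding sequence of *Odc1* over 1390 columns with 95.8% identity, 46 mismatches and 13 gap columns, and its longest identical run is 167 bases. The 100 bases below are the first gap-free stretch of that length in the coding sequence with the most mismatches, 7. They show letters by which a read of *Odc1* and a read of *Gm7993* can be told apart, with the differing bases in capitals. Whether the reads counted on *Gm7993* carry its letters was not tested, since no reads were used here.
*Odc1*, bases 712 to 811 of its transcript: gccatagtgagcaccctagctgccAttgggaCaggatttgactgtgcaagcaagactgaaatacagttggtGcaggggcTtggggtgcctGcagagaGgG
*Gm7993*: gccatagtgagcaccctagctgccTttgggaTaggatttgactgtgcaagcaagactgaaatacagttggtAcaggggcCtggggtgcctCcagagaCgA

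Among the other near copies, *Oaz1-ps*, a pseudogene of *Oaz1*, was called lower, with 194 and 175 counts in the WT samples and 77 and 98 in the *c-Myc* transgenic samples (log2 fold change -1.43, SE 0.24, adjusted p = 0.0374, edgeR). The *Odc1* pseudogenes *Gm17709* and *Gm9115* had 20 and 25 against 77 and 90 counts and 15 and 10 against 59 and 55 counts, and neither was called (adjusted p = 0.0771 and 0.0645, edgeR). *Gm7450*, the *Odc1* pseudogene with the most WT counts, had 462 and 209 against 288 and 466 counts, and its samples overlapped (log2 fold change -0.17, adjusted p = 0.772, edgeR). *Amd2*, a near-identical copy of *Amd1* with 99.1% identity over 3218 columns and a longest identical run of 930 bases, had 590, 428, 646 and 645 counts and a log2 fold change of 0.024 (adjusted p = 0.946, edgeR). *Amd1* and *Amd2* counts are therefore uncertain as separate values. When each gene was summed with its copies in the table before the fit, *Odc1* had a log2 fold change of 0.84 (SE 0.10, adjusted p = 0.0241, edgeR), *Amd1* one of 0.29 (adjusted p = 0.216, edgeR), *Oaz1* one of -0.19 (adjusted p = 0.151, edgeR) and *Paox* one of 0.62 (adjusted p = 0.100, edgeR). No call changed. Exons of *Paox* share 142 bases with *Echs1* on the opposite strand and those of *Azin1* share 358 bases with the antisense gene *Gm49077*. The strand setting of the counting was not given in the sources used here, and reads of such overlaps cannot be assigned.

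A list of 41 genes around the pathway was read from the same fit. It holds the enzymes that attach hypusine, a modification made from spermidine, to the translation factor eIF5A, the supply of arginine and ornithine, the methionine cycle, the salvage of methionine from methylthioadenosine, the by-product of *Srm* and *Sms*, the transport of polyamines and their precursors, and further regulators. Of these, 37 had enough reads to be tested (not *Apip*, *Slc22a2*, *Oaz3* and *Satl1*), 6 were called higher and 0 lower, beside 5.65% and 5.08% of all tested genes, and the median log2 fold change was 0.14. With DESeq2 8 genes of the list were called, 7 higher and 1 lower. Leaving out either WT sample left 0 of the 6 called, with 8 genes of the list at an unadjusted p under 0.05 each time.

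The salvage of methylthioadenosine held 2 of the 6 called genes. *Mtap*, the phosphorylase that opens this route, had 39.8 and 37.2 CPM in the WT samples and 80.8 and 75.2 CPM in the *c-Myc* transgenic samples. It rose 2.03-fold, with a log2 fold change of 1.02 (SE 0.088, adjusted p = 0.0180, edgeR). *Mri1*, the isomerase of the next step, had 14.3 and 16.8 CPM against 32.5 and 28.3 CPM (log2 fold change 0.96, SE 0.15, adjusted p = 0.0337, edgeR). *Adi1*, the dioxygenase near the end of the route and the gene of this route with the highest mean count over all samples, had 89.5 and 75.5 CPM against 61.5 and 59.3 CPM and was not called (log2 fold change -0.45, adjusted p = 0.0689, edgeR). In the *c-Myc* transgenic samples the CPM of *Mtap*, which are not corrected for gene length, were above those of *Adi1*. *Enoph1* was not called and *Apip* had 0 to 6 counts.

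In the methionine cycle, 1 of 6 genes was called. *Mtrr*, the reductase that keeps methionine synthase active, had 11.7 and 12.5 CPM in the WT samples and 22.3 and 24.8 CPM in the *c-Myc* transgenic samples (log2 fold change 0.96, SE 0.14, adjusted p = 0.0302, edgeR). *Ahcy*, which hydrolyses S-adenosylhomocysteine, had 11.8 and 15.6 CPM against 26.3 and 22.8 CPM and missed the threshold (log2 fold change 0.84, adjusted p = 0.0621, edgeR). *Mat2b*, a subunit of S-adenosylmethionine synthetase and the gene with the highest mean count of this group, had a log2 fold change of -0.11 (adjusted p = 0.433, edgeR). Both *c-Myc* transgenic samples of *Mtrr* and *Ahcy* lay above both WT samples. *Mat1a* had the log2 fold change that was largest in size in this group (-2.43, adjusted p = 0.183, edgeR) and was not called. It had 57 and 381 counts in the WT samples and 49 and 62 in the *c-Myc* transgenic samples.

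Among 10 genes of arginine and ornithine supply, *Aldh18a1*, which makes the precursor of ornithine and proline from glutamate, was the called one. It had 76.6 and 62.0 CPM in the WT samples and 126 and 108 CPM in the *c-Myc* transgenic samples (log2 fold change 0.76, SE 0.15, adjusted p = 0.0472, edgeR). *Oat*, ornithine aminotransferase and the gene with the highest mean count here, had 213 and 230.0 CPM against 241 and 219 CPM (log2 fold change 0.054, adjusted p = 0.734, edgeR). Of 10 tested transport genes 1 was called. *Slc7a1*, the carrier that imports arginine, ornithine and lysine, had 100.2 and 92.4 CPM against 191 and 149.8 CPM (log2 fold change 0.82, SE 0.15, adjusted p = 0.0396, edgeR). *Atp13a3*, a polyamine transporter of endosomes with the highest mean count of the group, had a log2 fold change of -0.048 (adjusted p = 0.749, edgeR).

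Of 4 hypusination genes 1 was called. *Dohh*, which completes the hypusine residue, had 42.7 and 46.5 CPM in the WT samples and 72.5 and 69.3 CPM in the *c-Myc* transgenic samples (log2 fold change 0.67, SE 0.087, adjusted p = 0.0262, edgeR). *Dhps*, which performs the step before it with spermidine as the donor, had 17.5 and 18.6 CPM against 23.0 and 17.6 CPM (log2 fold change 0.16, adjusted p = 0.569, edgeR), and its samples overlapped. *Eif5a*, the protein that carries the residue, had 380, 230, 371 and 468 counts and was not called (log2 fold change 0.13, adjusted p = 0.722, edgeR). Among the further regulators and catabolic enzymes none of the 3 tested genes was called.

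**Figure D4:**
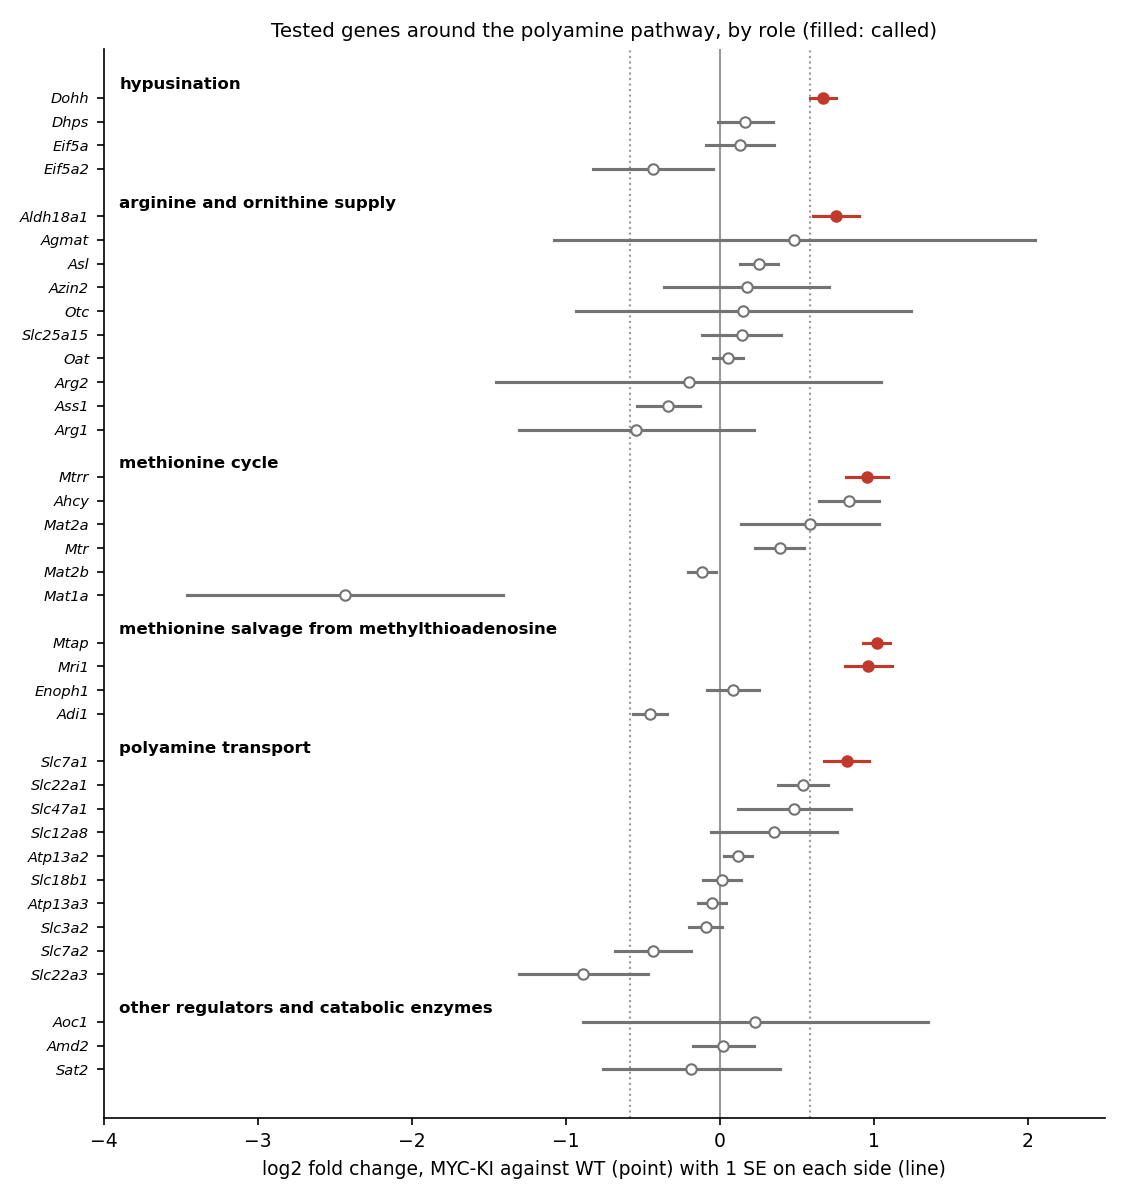
Log2 fold change of the *c-Myc* transgenic against the WT samples (points, filled red where called) with 1 SE on each side (lines) for the 37 tested genes around the pathway, grouped by role, with dotted lines at the 1.5-fold threshold on either side of 0. The 6 filled points, *Dohh*, *Aldh18a1*, *Mtrr*, *Mtap*, *Mri1* and *Slc7a1*, lie to the right between 0.67 and 1.02, and *Arg2*, *Otc*, *Agmat* and *Aoc1* have wide lines that cross 0.

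Some pathway genes differed more between samples of 1 genotype than between genotypes. *Arg2*, a mitochondrial arginase that makes ornithine, had 35.9 and 12.2 CPM in the WT samples and 39.2 and 2.84 CPM in the *c-Myc* transgenic samples. *Aoc1*, which oxidizes putrescine, had 10.6 and 5.84 CPM against 17.8 and 1.57 CPM, and *Otc*, which uses ornithine to make citrulline, had 5.24 and 3.51 CPM against 8.96 and 0.828 CPM. *Agmat*, an agmatinase, had 46, 6, 74 and 4 counts. For each of these 4 genes replicate 1 was the higher sample in both genotypes. *Arg1*, the cytosolic arginase, differed the other way in the *c-Myc* transgenic samples, with 16.1 and 14.8 CPM in the WT samples and 3.51 and 17.7 CPM in the *c-Myc* transgenic samples. Markers of small intestinal enterocytes, chosen after the values of the first 4 genes were seen, differed between the same samples. *Sis*, sucrase-isomaltase, had 56.2 and 21.1 CPM in the WT samples and 64.4 and 2.96 CPM in the *c-Myc* transgenic samples, and *Alpi*, intestinal alkaline phosphatase, had 716 and 198 CPM against 799 and 66.4 CPM. The summed level of the 8 markers was 2524 and 1652 CPM in the WT samples and 1763 and 206 CPM in the *c-Myc* transgenic samples. Replicate 1 was the higher sample for 8 of 8 in the *c-Myc* transgenic samples and for 7 of 8 in the WT samples, the exception being *Apoa1* (943 and 1008 CPM). No marker of this list was at 0 in any sample, none was called, and their part in the values of these pathway genes was not tested.

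**Figure D5:**
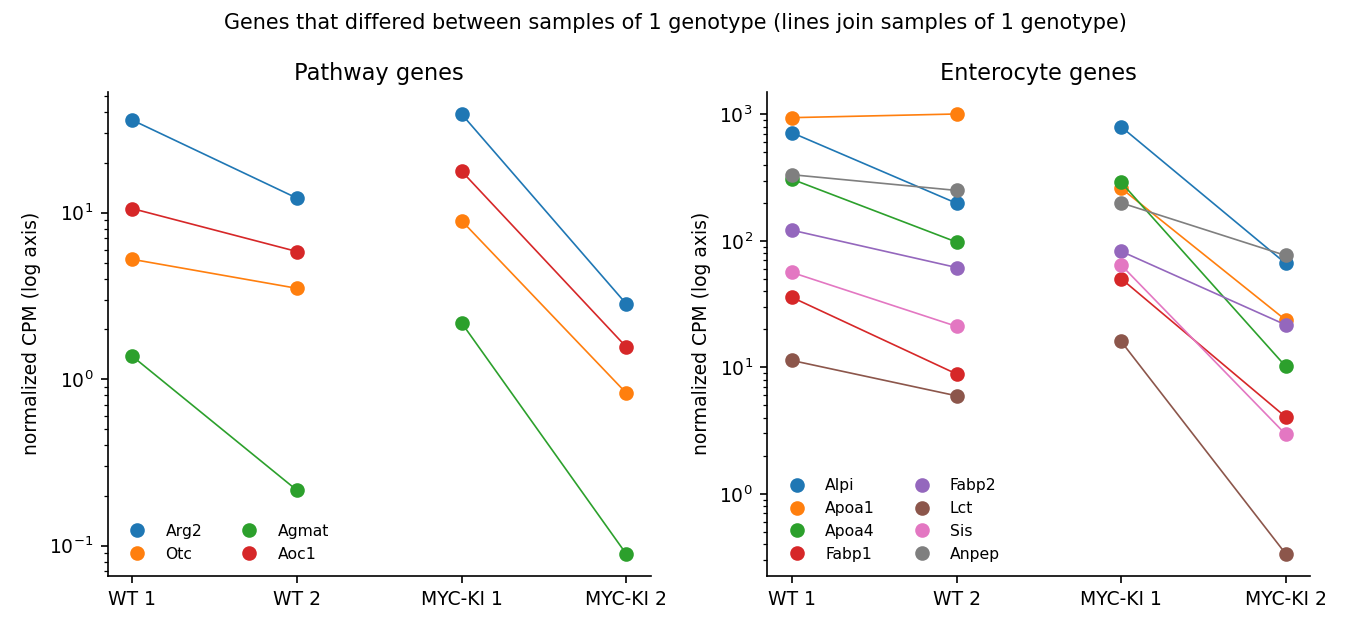
Normalized CPM (log axes) of 4 pathway genes (left) and 8 enterocyte markers (right) in each sample, with lines joining the 2 samples of 1 genotype. Replicate 1 is the higher sample in both genotypes, except for *Apoa1* in the WT samples, and *Arg2* reaches from 39.2 to 2.84 CPM in the *c-Myc* transgenic samples.

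The level of proliferating cell genes is given beside the polyamine genes, because dividing cells are known to express *Odc1*. The summed level of *Mki67*, *Top2a*, *Ccnb1* and *Pcna* was 320 and 305 CPM in the WT samples and 459 and 412 CPM in the *c-Myc* transgenic samples. Of these 4 genes *Ccnb1* was called higher (log2 fold change 0.98, SE 0.18, adjusted p = 0.0431, edgeR). The other 3 were not called but were above both WT samples in both *c-Myc* transgenic samples. *Top2a* had a log2 fold change of 0.56, under the fold threshold (adjusted p = 0.0496, edgeR). The log2 fold change was 0.40 for *Mki67* and 0.41 for *Pcna* (adjusted p = 0.0821 and 0.0631, edgeR). Of the 5 mast cell markers *Cma1*, *Mcpt1* and *Mcpt2*, which encode proteases, were called higher, and the list summed to 69.9 and 92.4 CPM against 227 and 235 CPM. *Cpa3* was not called (adjusted p = 0.0695, edgeR), and neither was *Kit*, the receptor gene that made up most of the WT sum, with 57.1 and 64.2 CPM against 56.0 and 53.4 CPM (log2 fold change -0.15). No marker of that list was at 0. Parietal markers summed to 10667 and 10837 CPM against 331 and 403 CPM. Of 4 endocrine markers 3 were called lower (summed levels of 2066 and 1303 CPM against 404 and 440.1 CPM), as were *Lyz2* and *Adgre1* of 5 leukocyte markers (174 and 185 CPM against 74.7 and 65.3 CPM) and 1 of 3 adipocyte markers. *Lyz2* made up most of the WT leukocyte sum, with 139.6 and 138.9 CPM. The leukocyte markers *Ptprc* (log2 fold change -0.040), *Cd3e* (0.12) and *Cd79a* (-0.28) overlapped between the genotypes and were not called. Forestomach squamous markers set the *c-Myc* transgenic samples apart from each other, with summed levels of 2416 and 1342 CPM against 811 and 4101 CPM, and none of the 7 was called. Mucous neck markers (9863 and 12194 CPM against 19714 and 8667 CPM) and smooth muscle markers (6950 and 4426 CPM against 2246 and 4849 CPM) also differed between the *c-Myc* transgenic samples, with none of 2 and none of 5 called. The part of these cell types in the *Odc1* and *Srm* values was not tested.

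Taken as deposited, the same table gave other values for every polyamine gene. Of the 10 genes 9 were then called lower, beside 84.1% of 22083 tested genes called and 41.5% called lower. *Odc1* had a fitted log2 fold change of -15.39 there, against 0 reads in both *c-Myc* transgenic columns, and *Srm* was not called (log2 fold change 0.29, adjusted p = 0.266, edgeR). The adjusted p of *Srm* on the re-sorted counts, over all alternatives, ran from 0.000156 to 0.238.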

How the data were processed

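Stomach RNA of 2 WT and 2 *c-Myc* transgenic samples with an RNA integrity number above 8 was sequenced by the authors on Illumina libraries. The authors deposited raw counts per gene symbol, 46095 rows, without normalization. The submitters' processing notes name HISAT2 and mm10; the counting tool, annotation and strand setting were not given in the sources used here. The authors' own comparison used DESeq2.

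Counts of both *c-Myc* transgenic columns were assigned, in row order, to the names sorted by character code, which uses no count value. The test was edgeR's quasi-likelihood test (edgeR 4.0.16, R 4.3.3, TMM, filterByExpr, glmQLFit and glmQLFTest, Benjamini-Hochberg adjustment, no covariate) over all 17643 genes that passed the filter. Calls needed an adjusted p under 0.05 and a change of over 1.5-fold. The SE is the absolute log2 fold change over the square root of F. CPM are TMM-normalized. At these depths a count of 0 allows up to 3 counts (counting error only). The polyamine genes are all named, with every called gene and the gene with the highest mean count of each group of the pathway list, and near copies of the polyamine genes. *Ahcy*, *Mat1a*, *Enoph1*, *Arg1*, *Dhps*, *Eif5a*, the genes that differed within a genotype and their markers were picked with their values in view. The members and lists were chosen with earlier results of these data known.

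Near copies were found as 50-base words shared between GENCODE M21 transcripts of GRCm38. Alternatives were the table as deposited, DESeq2 1.42.0, other scalings, other filters and thresholds, the replicate number as a block, copies summed and leaving out each sample.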

Additional observations from a re-analysis of the deposited data

How the results depend on the processing

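On the re-sorted counts *Odc1* and *Srm* kept a positive fold change under every alternative run, and both were called with DESeq2. Their calls were lost with the replicate block and without either WT sample, that of *Srm* also without *c-Myc* transgenic replicate 1, and that of *Odc1* at the higher fold threshold. The number of genes called over the table was 1892 and became 18580 in the table as deposited, 3232 with DESeq2, 3011 with library size alone, 1113 with an absolute log2 fold change above 1, 114 with the replicate block and 0 to 2470 when 1 sample was left out. The number of polyamine genes called was 2 and became 9 as deposited, 1 at the higher fold threshold, 0 with the replicate block and 0 to 2 when 1 sample was left out. Of the pathway list 6 were called, and 33 as deposited (16 higher, 17 lower), 1 at the higher fold threshold, 0 with the replicate block and 0 to 9 when 1 sample was left out. With the block, 5178 genes, 3 of them polyamine genes and 8 of the pathway list, had an unadjusted p under 0.05 in edgeR, and the adjusted p was 0.0768 for *Odc1* and 0.0916 for *Srm*. The replicate numbers were not treated as pairs, since the labels name nothing that same-numbered samples share and the differences between replicates correlated between the genotypes at 0.067 over genes. A sample left alone in its genotype was assumed to vary like the other pair.

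The direction reversed as deposited for *Odc1* (-15.39), *Sms* (-9.57), *Amd1* (-1.46), *Sat1* (-0.71), *Azin1* (-7.76), *Smox* (-12.62) and *Paox* (-9.50), where the counts belong to other names. *Azin1* also changed sign with DESeq2 (-0.0080), with the size factors of DESeq2 in edgeR (-0.012), with the replicate block (-0.0066), without WT replicate 1 (-0.049) and without *c-Myc* transgenic replicate 1 (-0.17, with leave-one-out values up to 0.16), *Oaz1* with library size alone (0.069), and *Sat1* without WT replicate 2 (-0.013) and without *c-Myc* transgenic replicate 1 (-0.013, with leave-one-out values up to 0.11). The cause of these was not tested.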
